A study of Mus musculus
Rattus norvegicus and Rattus norvegicus and Mus musculus with 18 samples.

Results

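The genes described here are 8 imprinted genes, H19, Igf2, Igf2r, Peg3, Mest, Plagl1, Cdkn1c and Grb10, followed in tumors that hold cells of a pair of species. They are a list of names, and the list was drawn up with earlier results of these data known. The table of tumor (mouse) genes held 5 of the 8 among 17672 genes: H19, Igf2r, Mest, Plagl1 and Grb10. The table of host (rat) genes held 7 of the 8 among 14876 genes, all but H19. Mouse Igf2, Peg3 and Cdkn1c and rat H19 are not analysed here in the tumor and lung libraries.

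RNA carrying polyA tails was sequenced from SRG rats, an immunodeficient strain, that carried tumors of 4T1, a mouse mammary carcinoma line that spreads to the lung. Cells were placed in the mammary fat pad, tissue was taken at day 27, and all groups are labelled wild type and untreated. Each tumor was cut apart into a necrotic core (5 libraries) and the non-necrotic rim around it (5 libraries), both from Rat3867, Rat3869, Rat3875, Rat3876 and Rat3877; 5 lungs came from 4 of these rats and from Rat3789 in place of Rat3867. Mammary gland of rats without a transplant (2 libraries) and pelleted 4T1 cells from culture (1 library) are controls of a single species. Every tumor was grown from 1 cell line. Mouse reads are taken as tumor RNA and rat reads as host RNA.

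Imprinted genes are read mainly from 1 parental copy, a choice set by DNA methylation marks laid down in the germ line. Many of them regulate growth before birth: Igf2 is a growth factor, Igf2r takes it up and destroys it, Cdkn1c and Grb10 restrain division and insulin-type signaling, and H19 is a long noncoding RNA whose copy is read when Igf2 beside it is not. After birth most are turned down in most organs and remain on in some stromal and progenitor cells, and H19 and Igf2 come back in many carcinomas.

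In the mouse genome (GRCm38, GENCODE M21) H19 is a lincRNA gene on the minus strand of chr7:142575529-142578143, and Igf2 lies 72622 bases away at chr7:142650766-142666816 on the same strand. Chromosome 7 also carries Peg3 (chr7:6703892-6730431) and Cdkn1c (chr7:143458339-143461050). Igf2r is on the minus strand of chr17:12682406-12769664 and is overlapped by the antisense noncoding gene Airn. Mest is on the plus strand of chr6:30723547-30748465 and is overlapped by the antisense gene Copg2. Plagl1 is at chr10:13060504-13131694 (plus strand) and Grb10 at chr11:11930508-12038683 (minus strand). Whether counting used the strand is not stated in the labels or headers, so reads of Mest and Copg2, or of Igf2r and Airn, that fall in shared stretches cannot be told apart. The transcript of H19 also carries the hairpin from which the microRNA miR-675 is cut. It is shown because it is the stretch of H19 with a small RNA product of its own, which polyA libraries do not count. It spans chr7:142577064-142577147 (minus strand), 84 bases, and is exonic, at bases 997 to 1080 of the 2286 bases of the transcript H19-202. It is printed 5′ to 3′ in lower case from the GENCODE transcripts, with nothing capitalised because the mature arms were not located.
Mir675 hairpin: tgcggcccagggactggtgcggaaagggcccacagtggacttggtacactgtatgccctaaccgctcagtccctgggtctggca

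The tumor and lung libraries held 15346400 to 26669410 mouse reads and 3146720 to 10015352 rat reads on genes of the tables. Values are counts per 1000000 reads (CPM) as the authors scaled them, separately for each species. The 6 mouse epithelial markers summed to 1883.5 to 4901.5 CPM over the 15 libraries, most of it from the keratins Krt8 and Krt18. Of these markers 5 of 6 were lower in the core than in the rim (median log2 difference -0.89), while 19.8% of all mouse genes differed in either direction. In the lung 6 of 6 were lower than in the rim (median -2.37), beside 20.1% of all mouse genes. Between lung and core 2 of 6 were lower in the lung (median -0.66), beside 36.3%, so that count is near the background. Epcam, an adhesion protein of epithelium, measured 40.8 to 109 CPM in lungs and 235 to 752 CPM in rims. Their part in the tumor results was not tested. The lung library of Rat3789 stood apart, since its host alveolar and airway markers summed to 21.2 CPM against 9159.8 to 16774 CPM in the other lungs, and its host fibroblast markers to 26049 CPM against 2194 to 6340 CPM. Lung results of the imprinted genes are therefore given with and without it. Of 7 host fibroblast markers tested, 7 were lower in the core than in the rim (adjusted p under the threshold of 0.05 in limma, a linear model fitted over all genes), and their sum was 3342 to 11177 CPM in the core and 31877 to 58780 CPM in the rim. In tissue of this kind, fewer cells of a type and less RNA per cell cannot be told apart.

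Some reads land on the wrong species. In the gland libraries, which hold no mouse cells, 1.78% and 1.96% of reads were placed on mouse genes, and in the pellet 0.718% were placed on rat genes. H19 was among the genes most touched: the glands gave 905 and 987 reads on mouse H19, rank 24 of all mouse genes there. Rat H19 is not among the rat genes analysed here, so host H19 reads placed on the mouse gene cannot be told apart from tumor reads. The reads expected to be wrongly placed in a library are those that the control of the other species gave, scaled to that library. The pellet gave 88 reads on rat Igfbp5, 59 on rat Dcn and 6 on rat Peg3, beside 0, 1 and 0 on the mouse genes. Whether such reads came from tumor RNA was not tested, so estimates for host genes may not scale with mouse reads.

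H19 was lower in the necrotic core than in the rim of 4 of 5 tumors, and its level differed widely between rats. The highest library was 3.73 times the lowest in the core, 7.24 times in the rim and 20.4 times in the lung. In the core it measured 155 CPM (Rat3867), 248 (Rat3869), 400.0 (Rat3875), 577 (Rat3876) and 184 (Rat3877). In the rim it measured 701, 1029.6, 245, 1776 and 789.6 CPM in the same order of rats. The groups overlapped: the rim was above the core in 4 of 5 rats, and in Rat3875 it was below. The mean was 313 ± 176 CPM over cores and 908 ± 562 CPM over rims (± SD of 5 libraries), a log2 difference of -1.45 ± 0.38 (SE; adjusted p = 0.0294, limma with the rat as a block). This call rested on all rats but Rat3875: without Rat3867, Rat3869, Rat3876 or Rat3877 the adjusted p was 0.0954, 0.0878, 0.0794 and 0.0622, and without Rat3876 and Rat3877 together it was 0.144.

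In lungs H19 was low in 4 libraries and highest of all in the fifth. The values were 220.4 CPM (Rat3869), 184 (Rat3875), 101 (Rat3876) and 294 (Rat3877), and 2059.7 CPM in Rat3789. The mean over 5 lungs was 572 ± 835 CPM (SD), above each of the 4 lungs other than that of Rat3789. Lung and rim did not differ beyond the spread with all lungs (log2 difference -1.33 ± 0.71, adjusted p = 0.207, limma). Without Rat3789 the difference was -2.02 (adjusted p = 0.0143), and with the rat as a block it was -2.05 (adjusted p = 0.0314), lower in the lung in 4 of 4 rats. Lung and core were not distinguished (0.12 ± 0.64, adjusted p = 0.899; without Rat3789 -0.57, adjusted p = 0.250).

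**Figure D1:**
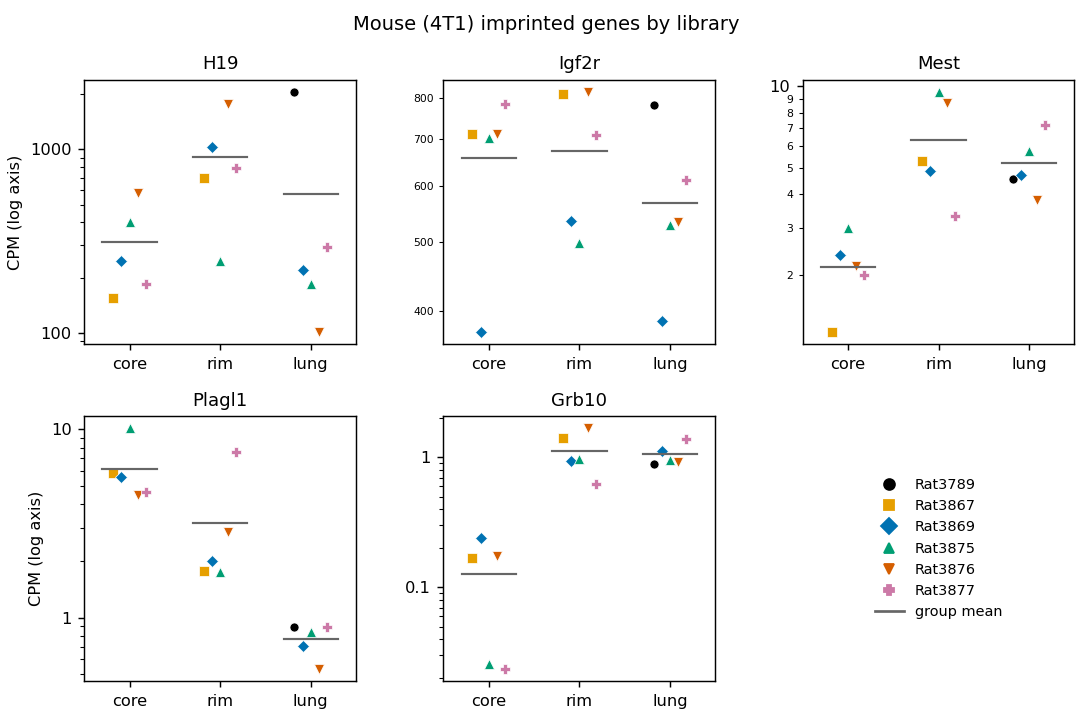
Level of each mouse imprinted gene in every core, rim and lung library (CPM on a log axis); symbols mark the rat and grey lines the group mean. H19 in the lung of Rat3789 (2059.7 CPM) lies above every rim, and Plagl1 in the 5 lungs lies below every core and rim.

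The cultured cells held little H19. The pellet gave 65 reads, 2.21 reads per 1000000 mouse reads (RPM; 95% Poisson interval 1.70 to 2.81, counting error only), while the libraries from rats gave 147 to 581 RPM in the core, 242 to 1783 in the rim and 104 to 2052 in the lung. The lowest of these, the lung of Rat3876, was 47.2 times the pellet value, and there is 1 pellet library, so this difference has no replicate check. Wrongly placed host reads expected from the glands came to 141 to 450 per library, against 1796 to 51924 reads counted. In the lung of Rat3876 they were 21.3% of the H19 reads, and in the other libraries 0.773% to 8.75%. This estimate takes host H19 to be as abundant per rat read as in normal gland, and whether host cells of these tumors held more was not tested.

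The summed host fibroblast markers can be set beside H19 in each library. Of the 8 markers listed, Col1a2 is not analysed here, and none of the other 7 was at 0 in any library. In the lung of Rat3789 both were high (2059.7 CPM of H19 and 26049 CPM of markers), while in the other lungs markers of 2194 to 6340 CPM stood beside H19 of 101 to 294 CPM. The rim of Rat3875 had the highest marker sum, 58780 CPM, beside 245 CPM of H19. The part of host cells in the H19 values was not tested.

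**Figure D2:**
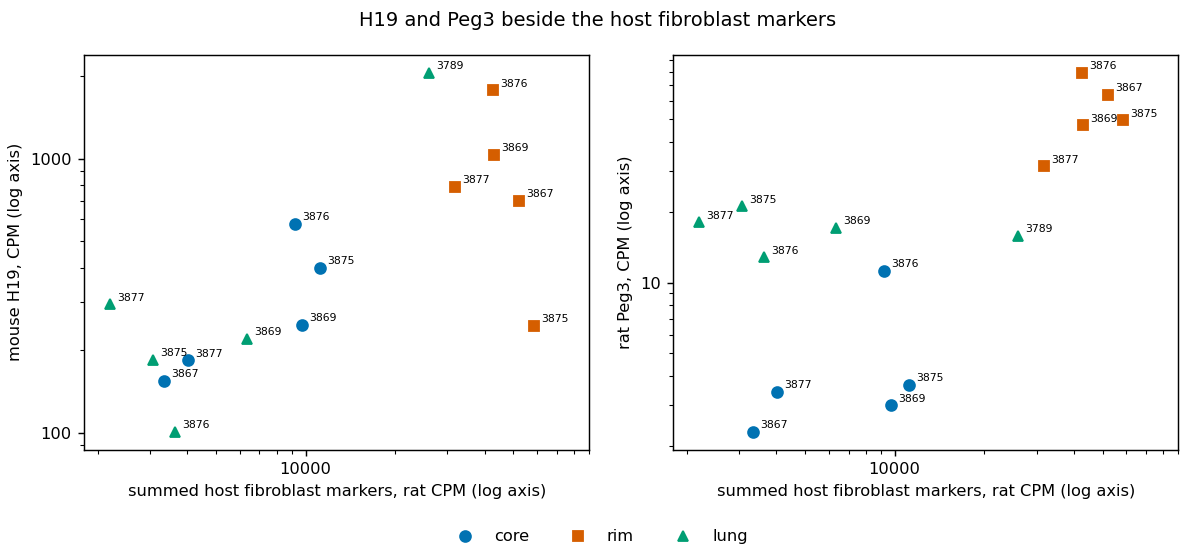
Mouse H19 (left) and rat Peg3 (right), in CPM on a log axis, against the summed CPM of 7 host fibroblast markers on a log axis; each point is a library, labelled by rat. The rim of Rat3875 has the highest marker sum (58780 CPM) and the lowest H19 of the rims (245 CPM), and 4 lungs have Peg3 of 12.9 to 21.2 CPM, above every core, at marker sums of 2194 to 6340 CPM.

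Igf2r, the receptor that clears the growth factor from the cell surface, was the other abundant tumor member and was not called in any comparison. Per kilobase of exon, the scale on which genes can be compared, H19 stood at 369 ± 229 and Igf2r at 72.5 ± 16.2 CPM per kb in the rim (SD, n = 5), and Mest and Plagl1 at 1.61 ± 0.67 and 0.409 ± 0.321. In the core Igf2r measured 713, 373, 703, 711 and 786 CPM (Rat3867, Rat3869, Rat3875, Rat3876, Rat3877), and in the rim 812, 535, 499, 817 and 709 CPM. In the lung it measured 783 CPM (Rat3789), 386 (Rat3869), 528 (Rat3875), 534 (Rat3876) and 612 (Rat3877). The groups overlapped, Rat3869 was the lowest core and the lowest lung, and no difference was called (core against rim -0.05 ± 0.14, adjusted p = 0.825; lung against rim -0.25 ± 0.19, adjusted p = 0.369; lung against core -0.20 ± 0.21, adjusted p = 0.482). Without Rat3789 the lung differences were -0.38 (adjusted p = 0.145) from the rim and -0.33 (adjusted p = 0.228) from the core. Of the 8483 to 19731 reads in a library, 26.3 to 89.2 were expected to be wrongly placed. The pellet held 67.4 RPM, and every library from rats held at least 5.34 times that.

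Mest, a membrane enzyme of the hydrolase family read from the paternal copy, fell in the tumor core. Its values there were 1.23, 2.37, 2.99, 2.15 and 2.01 CPM in the order Rat3867, Rat3869, Rat3875, Rat3876 and Rat3877, and in the rim 5.31, 4.87, 9.55, 8.64 and 3.32 CPM. Core and rim did not overlap, and the log2 difference was -1.51 ± 0.25 (adjusted p = 0.00579, limma; lower in 5 of 5 rats). Lungs, at 3.79 to 7.18 CPM, lay above every core (log2 difference 1.29 ± 0.25, adjusted p = 0.0017) and among the rims (-0.22 ± 0.29, adjusted p = 0.628). Without Rat3789 these were 1.33 (adjusted p = 0.00243) and -0.18 (adjusted p = 0.721). Wrongly placed reads expected from rat Mest were at most 1.44 in the cores and 4.31 to 71.5 in the rims, of 25 to 58 and 66 to 200 reads. With them subtracted, an alternative chosen after seeing the data, the core stayed lower at -1.24 (adjusted p = 0.0118); subtracted in proportion to all reads, it was lower at -2.02 (adjusted p = 0.0139). The pellet, at 4.82 RPM, lay above the cores (1.15 to 2.79 RPM) and within the rims (3.27 to 9.42).

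Plagl1, a zinc finger factor that slows division and acts on other imprinted genes, had its lowest tumor level in the lung. It measured 5.86, 5.59, 10.1, 4.48 and 4.66 CPM in the cores, again from Rat3867 to Rat3877, and 1.77, 2.01, 1.74, 2.86 and 7.61 CPM in the rims. Lungs gave 0.892 (Rat3789), 0.706 (Rat3869), 0.842 (Rat3875), 0.534 (Rat3876) and 0.893 CPM (Rat3877), from 9 to 23 reads. The rim of Rat3877 lay with the cores, while the other rims lay below them. This rim was also the lowest rim for the epithelial markers Epcam, Krt14, Krt19 and Cdh1, and a link was not tested. Lung fell below the rim (-1.81 ± 0.39, adjusted p = 0.00867) and below the core (-2.95 ± 0.26, adjusted p = 1.06e-05), with no overlap in either; since no lung reached 1 CPM, the gene entered these tests through rim or core. Without Rat3789 the differences were -1.87 (adjusted p = 0.0118) and -3.01 (adjusted p = 1.18e-05), and 0.169 to 0.326 of the reads of a lung were expected to be wrongly placed. The call against the rim was lost without Rat3876 and Rat3877 together (adjusted p = 0.0528). Core against rim was 1.14 ± 0.41 and not called (adjusted p = 0.0845), but without Rat3877 it was 1.60 (adjusted p = 0.0109), without Rat3876 and Rat3877 together 1.91 (adjusted p = 0.0083) and with DESeq2 on the recovered reads 1.15 (adjusted p = 0.0220).

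Grb10, an adaptor that dampens insulin and IGF receptor signaling, was counted in the tumor at levels near those of wrongly placed reads. It measured 0.0237 to 0.239 CPM in the cores, 0.624 to 1.67 CPM in the rims and 0.892 to 1.39 CPM in the lungs, and did not pass the filter of 1 CPM in 5 of the compared libraries. The counts of 0 to 29 reads stood beside 1.52 to 31.8 reads expected from rat Grb10, so expression in tumor cells could not be told apart from wrongly placed reads at this depth. The pellet had 1 read. It also had 0 reads of mouse Igf2, Peg3 and Cdkn1c, which allows at most 0.102 RPM for each (3 counts of the total).

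Between core and rim, 2 of the 4 tumor members tested were called, both lower, against 19.8% of all mouse genes tested (10.1% higher and 9.63% lower). Between lung and rim 1 of 4 was called, lower, against 20.1% of genes (9.91% higher and 10.2% lower). Between lung and core 1 was higher and 1 lower, against 36.3% of genes (17.1% higher and 19.1% lower). With so few members these counts only list the calls above. Comparisons that share a group share its libraries, so their values are given side by side and not set against each other.

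In host reads 6 of the 7 imprinted genes of the rat table were lower in the necrotic core than in the rim, each in 5 of 5 rats, and only Igf2r was not called (limma, adjusted p under 0.05). Of all rat genes tested, 37.6% were called (17.5% higher and 20.1% lower). Igf2, Mest and Plagl1 reached 1 CPM in 1, 3 and 2 of the 5 cores, so they entered the test mainly through the rim, and a count over the members that passed is a list of calls and no support for a common change. The 7 fibroblast markers that were also lower in the core had a median log2 difference of -2.76. The imprinted members had -2.71 and all rat genes tested 0.00. Of other host markers, 4 of 4 of neutrophils were higher in the core (median 1.56). Beside 37.6% of all rat genes, 3 of 6 of pericytes and smooth muscle and 3 of 6 of endothelium were lower. Of 6 macrophage markers 2 were higher and 3 lower, and 1 of 4 adipocyte markers was lower. Alveolar and airway, skeletal muscle and epithelial markers were not called. In the lung against the rim, where 22.1% of all rat genes were called, 7 of 7 fibroblast markers were lower (median -3.81). Higher there were 4 of 4 neutrophil, 6 of 6 alveolar and airway, 3 of 6 endothelial and 2 of 6 epithelial markers. Lower were 3 of 6 of pericytes and smooth muscle, 1 of 6 of macrophages and 1 of 4 of adipocytes. Between lung and core, where 32.8% of all rat genes were called, 1 of 7 fibroblast markers was higher and 2 lower. Higher there were 6 of 6 alveolar and airway, 4 of 6 endothelial, 3 of 6 epithelial, 2 of 4 neutrophil and 1 of 4 adipocyte markers. Of 6 macrophage markers 1 was higher and 1 lower, and 1 of 6 of pericytes and smooth muscle was lower. How much of the members' differences goes with any of these cell types was not tested.

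Igf2, the growth factor, was a rare host transcript. The rims held 2.52 (Rat3867), 1.29 (Rat3869), 6.34 (Rat3875), 10.1 (Rat3876) and 5.35 CPM (Rat3877), and the cores 0.607, 0.158, 0.477, 1.39 and 0.883 CPM in the same order. Core and rim overlapped only where the highest core (Rat3876) passed the lowest rim (Rat3869). The difference was -2.85 ± 0.43 on the log2 scale (adjusted p = 0.00138). The cores rested on 0 to 4 reads, where 2.04 to 2.43 wrongly placed reads were expected. That estimate is itself uncertain, since it rests on 3 pellet reads on rat Igf2, beside 0 on mouse Igf2. At so few reads host Igf2 could not be told apart from wrongly placed reads in the cores. The size of the difference depends on the 0.5 read built into the values. Lungs held 0.592 to 3.36 CPM and were not distinguished from the rim (-1.12 ± 0.64, adjusted p = 0.246) or the core (1.74 ± 0.68, adjusted p = 0.0712), though lung against core was called with edgeR and DESeq2 on the recovered reads (1.90, adjusted p = 0.0464, and 1.94, adjusted p = 0.0281), with wrongly placed reads subtracted (2.74, adjusted p = 0.0129) and without Rat3876 (2.48, adjusted p = 0.0234). Without Rat3789 the lung differences were -1.33 (adjusted p = 0.165) and 1.53 (adjusted p = 0.122). Normal gland held 40.4 and 53.3 RPM of rat reads.

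Host Igf2r was the only member not called between core and rim. It measured 505, 316, 499, 385 and 465 CPM in the cores (Rat3867 to Rat3877) and 461, 427, 487, 258 and 372 CPM in the rims, with overlap and no call (0.13 ± 0.14, adjusted p = 0.505). Lungs held 260.1 to 341 CPM. They did not differ from the rim by call (-0.36 ± 0.16, adjusted p = 0.139; without Rat3876 -0.53, adjusted p = 0.0249), and were lower than the core at -0.49 ± 0.14 (adjusted p = 0.0196). Without Rat3789 these were -0.31 (adjusted p = 0.202) and -0.43 (adjusted p = 0.0312). The call against the core was lost under total-count scaling (adjusted p = 0.0819), with the rat as a block (0.0762), without Rat3875 (0.0839), without Rat3877 (0.0901), without Rat3876 and Rat3877 together (0.188) and with wrongly placed reads subtracted gene by gene (0.0604). For each of Igf2r's host libraries 111 to 258 reads were expected to be wrongly placed, of 1002 to 3394 counted.

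Among the growth restrainers, Grb10 had the tightest host values. It measured 22.9, 19.4, 19.9, 20.2 and 17.0 CPM in the cores and 156, 118, 140.3, 139 and 102 CPM in the rims (Rat3867, Rat3869, Rat3875, Rat3876, Rat3877). Every rim was above every core, and the log2 difference was -2.71 ± 0.09 (adjusted p = 1.42e-05). Lungs held 52.8 to 91.7 CPM, between both groups without overlap: lower than the rim (-0.93 ± 0.16, adjusted p = 0.00273) and higher than the core (1.78 ± 0.15, adjusted p = 4.59e-05). Without Rat3789 the lung differences were -1.03 (adjusted p = 0.00033) and 1.68 (adjusted p = 5.99e-06). Wrongly placed reads were expected at 3.13 to 5.43 per library, of 61 to 1277. Of all Grb10 reads, 0 to 7.58% were placed on mouse in any library.

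Cdkn1c, which encodes a cyclin-dependent kinase inhibitor, measured 2.55, 4.25, 3.66, 3.55 and 2.14 CPM in the cores and 19.6, 10.4, 19.7, 12.8 and 6.52 CPM in the rims. The groups did not overlap (-2.02 ± 0.29, adjusted p = 0.00108). In the lung Rat3789 had 2.45 CPM and the others 4.68 to 15.9 CPM. Lung against core was not called (1.28 ± 0.49, adjusted p = 0.0656), but was without Rat3789 (1.69, adjusted p = 0.00443), with the rat as a block (1.62, adjusted p = 0.0181) and with edgeR and DESeq2 on the recovered reads (1.63, adjusted p = 0.0265, and 1.63, adjusted p = 0.00678). Lung against rim was -0.74 ± 0.53 (adjusted p = 0.354), and -0.33 without Rat3789 (adjusted p = 0.608). The cores rested on 8 to 13 reads, of which 1.36 to 1.62 were expected to be wrongly placed. That estimate rests on 2 pellet reads on rat Cdkn1c, beside 0 on mouse Cdkn1c.

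Peg3, a large zinc finger protein read from the paternal copy, fell in the host core. Its rim values were 63.5, 47.2, 49.5, 79.3 and 31.4 CPM (Rat3867 to Rat3877), and its core values 2.31, 2.99, 3.66, 11.3 and 3.41 CPM. The core of Rat3876 was the highest core and still below every rim. The log2 difference was -3.71 ± 0.27 (adjusted p = 8.33e-05), from 9 to 36 reads in the cores, where 4.09 to 4.85 wrongly placed reads were expected. That estimate rests on 6 pellet reads on rat Peg3, beside 0 on mouse Peg3. Lungs held 12.9 to 21.2 CPM, below every rim (-1.62 ± 0.23, adjusted p = 0.000832) and above every core (2.09 ± 0.37, adjusted p = 0.00205). The lung of Rat3789, at 15.9 CPM, lay among the other lungs, and without it the differences were -1.60 (adjusted p = 0.000641) and 2.11 (adjusted p = 0.00182). Normal gland held 137 and 134 RPM of rat reads. Of the members besides Peg3 and Igf2, the glands held 138 and 172 RPM of Igf2r and 102 and 98.3 RPM of Grb10. Mest stood at 7.97 and 31.6 RPM there, Cdkn1c at 15.7 and 35.2 and Plagl1 at 12.9 and 19.1. Gland values were not tested against tumor or lung.

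Host Mest followed with 12.8, 3.66, 6.57, 32.6 and 8.66 CPM in the rims and 0.607, 1.10, 0.159, 2.01 and 1.64 CPM in the cores, the latter from 0 to 6 reads where 0.352 to 0.817 wrongly placed reads were expected. That estimate rests on 2 pellet reads on rat Mest, beside 142 on mouse Mest. The rim of Rat3876 was the highest and no core reached a rim (-3.58 ± 0.54, adjusted p = 0.0015). Lungs held 1.46 to 4.72 CPM and were called lower than the rim (-1.81 ± 0.54, adjusted p = 0.0350), a call lost with limma-voom (adjusted p = 0.0611), without Rat3867, Rat3875, Rat3876 or Rat3877 (0.0658 to 0.115) and without Rat3876 and Rat3877 together (0.242). Lung against core was 1.77 ± 0.67 (adjusted p = 0.0632; called with DESeq2 at 1.61, adjusted p = 0.0225, with a pseudocount of 1 at 0.94, adjusted p = 0.0383, and with wrongly placed reads subtracted in proportion to all reads at 2.26, adjusted p = 0.0242, but not gene by gene at 1.83, adjusted p = 0.0517). Without Rat3789 the lung differences were -2.01 (adjusted p = 0.0189) from the rim and 1.58 (adjusted p = 0.103) from the core.

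Host Plagl1 was lower in the core than in the rim and in the lung. The rims held 3.52, 4.26, 7.68, 8.44 and 9.05 CPM, the cores 1.09, 0.473, 0.795, 2.63 and 0.883 CPM, and the lungs 7.37 to 12.6 CPM. Core and rim did not overlap (-2.63 ± 0.41, adjusted p = 0.00162), nor did core and lung (3.19 ± 0.42, adjusted p = 0.000394). Lung against rim was 0.56 ± 0.30 (adjusted p = 0.219). Without Rat3789 the lung was 3.07 above the core (adjusted p = 0.000347) and 0.44 above the rim (adjusted p = 0.335). The cores rested on 1 to 8 reads, where 0.681 to 0.808 wrongly placed reads were expected. That estimate rests on 1 pellet read on rat Plagl1, beside 9 on mouse Plagl1, and was scaled to all mouse reads. The cores held 90 to 197 reads of mouse Plagl1, which this scaling does not use. Host Plagl1 in the cores could therefore not be told apart from wrongly placed reads. Of all Plagl1 reads, the share placed on mouse was 91.8% to 99.2% in the cores, 39.4% to 76.8% in the rims and 11.7% to 22.1% in the lungs, while the mouse share of all reads was 83.8% to 87.4%, 65.7% to 81.3% and 64.0% to 75.3%. These shares are a description without a test, and they compare genes of different length and sequence.

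**Figure D3:**
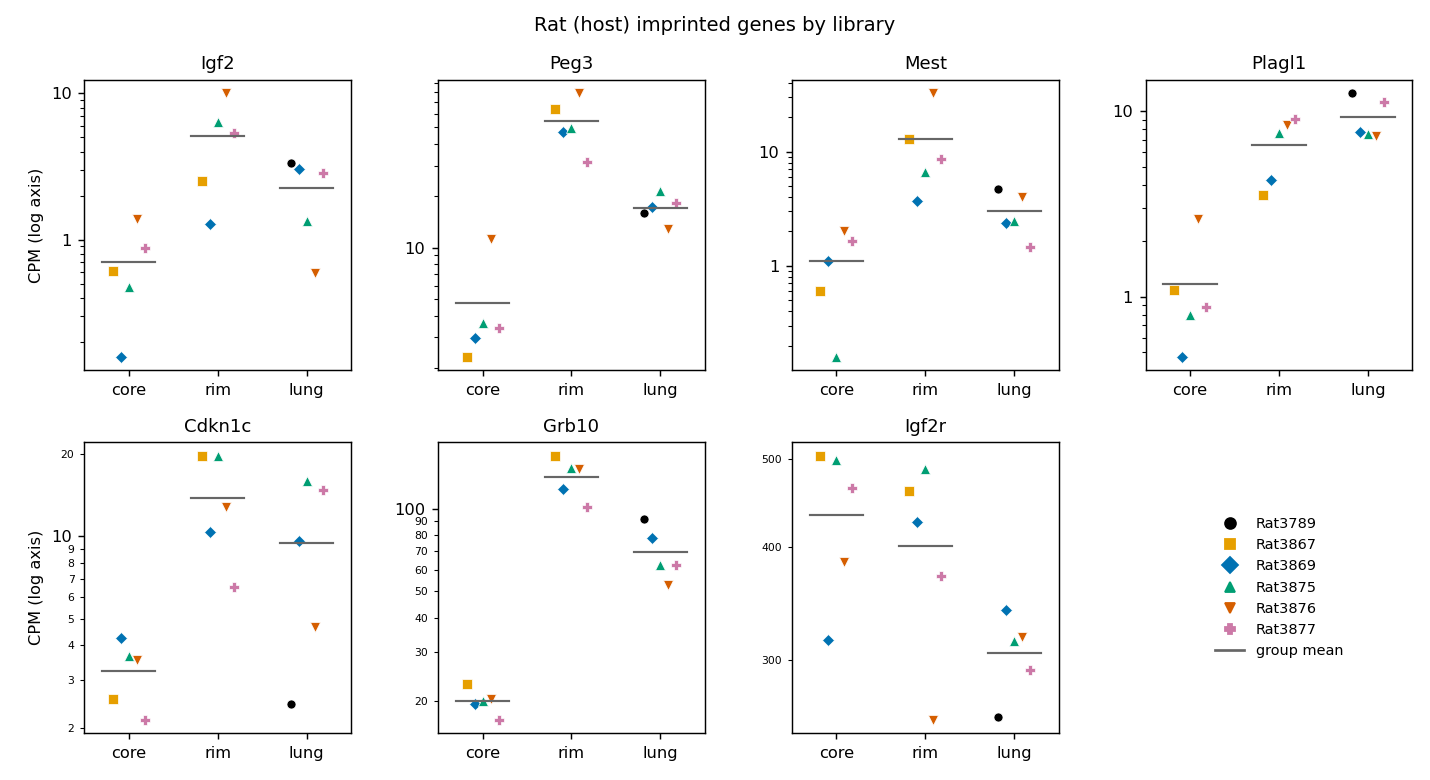
Level of each rat imprinted gene in every core, rim and lung library (CPM on a log axis); symbols mark the rat and grey lines the group mean. All members but Igf2r lie low in the cores, Igf2 with an overlap of 1 core and 1 rim, and the lung of Rat3789 is the lowest lung for Cdkn1c (2.45 CPM) and the highest for Grb10 (91.7 CPM).

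Between lung and rim, 3 of 7 host members were called, all lower, against 22.1% of rat genes (10.5% higher and 11.6% lower). Between lung and core 3 were higher and 1 lower, against 32.8% (17.9% higher and 14.9% lower). Under total-count scaling, which moved the median of all rat genes by 0.13 between lung and rim and by 0.11 between lung and core on the log2 scale, the directions of the called members did not change. Called genes of the whole table then split otherwise: 66.0% of them were higher in the lung than the rim (47.6% as reported), and 67.4% higher than the core (54.5%). For mouse genes the same shares were 60.8% (49.4%) and 62.0% (47.2%).

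**Figure D4:**
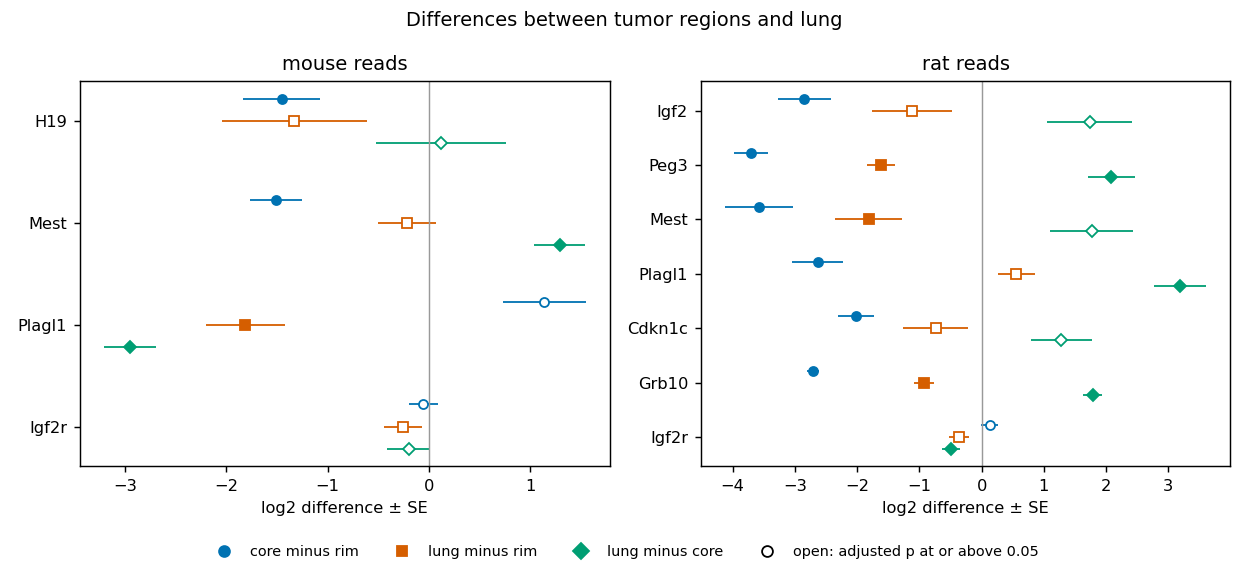
Log2 difference with its standard error for each member tested, in mouse reads (left) and rat reads (right); filled symbols have an adjusted p under 0.05 in limma. In rat reads every member but Igf2r lies left of 0 for core minus rim, between -2.02 and -3.71.

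Listed genes beyond the 8 are named below because they were called with large differences, so agreement among rats and lack of overlap follow in part from that choice. The share of all genes without overlap was not counted. The named genes hold 34 calls in lung comparisons. Without Rat3789, 32 of these were called, all but tumor Zfp57 and host Tet3 against the rim. As a ratio of log2 differences, and not of folds, 0 of the 34 moved by over 1.5 times. Host Dcn moved from -2.26 to -2.94 against the core and from -4.18 to -4.87 against the rim.

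Other imprinted genes were read from a list of 53. In the host, 29 of them were tested between core and rim, and 4 were higher and 8 lower, with a median log2 difference of 0.04; the share called, 41.4%, was near the 37.6% of all rat genes. The lower ones of at least 2 mean log2 CPM with the largest differences were Tfpi2, a protease inhibitor of the matrix (-3.14 ± 0.46, adjusted p = 0.00126), Ndn, a growth suppressor of the MAGE family (-2.73 ± 0.29, adjusted p = 0.000306), Osbpl5, a lipid transfer protein (-2.17 ± 0.27, adjusted p = 0.000569), and Dcn, the matrix proteoglycan decorin (-1.92 ± 0.20, adjusted p = 0.000251). Each was lower in 5 of 5 rats without overlap of core and rim, which follows in part from how they were picked. Dcn is also 1 of the fibroblast markers. Between lung and rim 3 of 33 were higher and 4 lower (21.2%, against 22.1% of all rat genes), among them Dcn (-4.18 ± 0.62), Tfpi2 (-2.14 ± 0.23) and Peg12 (-1.47 ± 0.27) lower and Nnat (1.40 ± 0.38) higher; the Nnat call was lost with limma-voom (adjusted p = 0.102) and without Rat3869, Rat3875, Rat3876 or Rat3877 (0.089 to 0.121), and the Dcn call without Rat3876 and Rat3877 together (0.0533). Between lung and core 9 of 31 were higher and 3 lower (38.7%, against 32.8%). Qpct, an enzyme that modifies peptide ends, was lower in the lung than the core (-1.63 ± 0.24) and Osbpl5 higher (1.94 ± 0.38), the latter not without Rat3876 and Rat3877 together (adjusted p = 0.0616). Dcn (-2.26 ± 0.62) and Nnat (1.81 ± 0.52) were also called there. Host Dcn, a fibroblast marker, stood at 780 CPM in the lung of Rat3789 and at 66.1 to 87.5 CPM in the other lungs, and without Rat3789 its difference from the core was -2.94 (adjusted p = 4.07e-06). Dcn was not called with edgeR (-1.46, adjusted p = 0.134), with DESeq2 (-1.47, adjusted p = 0.116) or without Rat3869, Rat3875, Rat3876 or Rat3877 (0.0665 to 0.0815), and Nnat was not called with limma-voom (0.092) or without Rat3869, Rat3876 or Rat3877 (0.0633 to 0.0825).

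In tumor cells 26 genes of that list were tested between core and rim, and 3 were higher and 1 lower (median 0.02; 15.4% called, against 19.8% of all mouse genes). Dcn rose from 0.424 to 3.60 CPM in the rims to 24.2 to 158 CPM in the cores (5.47 ± 0.55, adjusted p = 0.000914), and Peg13, a noncoding RNA, rose as well (1.03 ± 0.16, adjusted p = 0.004); both were higher in 5 of 5 rats without overlap. Impact was higher at 0.38 ± 0.11 (adjusted p = 0.0485) and Phlda2 lower at -1.01 ± 0.29 (adjusted p = 0.0406). The call for Phlda2, a restrainer of placental growth, was lost without Rat3867, Rat3875, Rat3876 or Rat3877 (adjusted p 0.053 to 0.134), and that for Impact in 11 of 17 alternatives, among them total-count scaling (0.0718) and without Rat3867, Rat3875 or Rat3876 (0.118 to 0.177). Between lung and rim 0 of 27 were higher and 3 lower (11.1%, against 20.1%), of which Copg2 (-0.35 ± 0.08, adjusted p = 0.0131) passed 2 mean log2 CPM; its call was lost without Rat3876 (adjusted p = 0.0602). Between lung and core 2 of 25 were higher and 3 lower (20%, against 36.3%). There Dcn fell by 4.07 ± 0.49 and Cd81, a tetraspanin, by 0.41 ± 0.10 on the log2 scale, the latter call being lost without Rat3876 and Rat3877 together (adjusted p = 0.178). Tssc4 (0.38 ± 0.13, adjusted p = 0.0384) and Mcts2 (0.38 ± 0.14, adjusted p = 0.0496) were higher; the Tssc4 call was lost without Rat3867, Rat3875, Rat3876 or Rat3877 (0.0792 to 0.184) and the Mcts2 call with edgeR (0.0509) and without any 1 rat but Rat3867 and Rat3789 (0.105 to 0.184).

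Genes of the IGF pathway, through which Igf2 acts, numbered 17 on the list. In the host, 12 were tested between core and rim; 2 rose and 7 fell, with a median of -1.11 (75.0% called, against 37.6% of all rat genes). Those that fell most encode IGF binding proteins: Igfbp5 (-3.20 ± 0.26, adjusted p = 0.000108), Igfbp4 (-2.62 ± 0.18, adjusted p = 7.01e-05) and Igfbp6 (-2.55 ± 0.48, adjusted p = 0.00406), each lower in 5 of 5 rats. Igfbp3, the main carrier in blood, rose (1.59 ± 0.42, adjusted p = 0.019), a call lost without Rat3867 (adjusted p = 0.058), without Rat3876 (0.0542) and without Rat3876 and Rat3877 together (0.133). In tumor cells 1 of 10 was called between core and rim (10%, against 19.8% of all mouse genes): Igfbp7, a secreted binding protein, rose by 2.31 ± 0.45 (adjusted p = 0.0101). In tumor cells of the lung against the core 6 of 11 were lower (54.5%, against 36.3%), among them Igfbp7 (-2.65 ± 0.39), the adaptor Irs2 (-0.61 ± 0.15) and the receptor Igf1r (-0.59 ± 0.12); the last 2 calls were lost without Rat3876 and Rat3877 together (adjusted p = 0.0888 and 0.0958). Host lungs against rims had 1 of 13 higher and 4 lower (38.5%, against 22.1%), led by Igfbp5 (-2.36 ± 0.54), Igfbp3 (-2.34 ± 0.54), Igfbp4 (-2.15 ± 0.48) and Irs1 (-2.09 ± 0.24), of which Irs1 was called in all 18 alternatives. Without Rat3876 and Rat3877 together the Igfbp5 call was lost (adjusted p = 0.0706). The Igfbp3 call was lost without Rat3869 (adjusted p = 0.0513) or Rat3875 (0.0739), and the Igfbp4 call without Rat3875 (0.0681), without Rat3876 (0.058) or without Rat3876 and Rat3877 together (0.202). Host lungs against cores had 3 of 13 higher and 2 lower (38.5%, against 32.8%): Igfbp3 (-3.93 ± 0.52) and Igf1 (-1.77 ± 0.33) were lower, and Igfbp2 (3.37 ± 0.82) and Igfbp7 (0.83 ± 0.16) were among the higher ones. Of these 4, Igfbp3 alone kept its call without Rat3876 and Rat3877 together (adjusted p 0.0518 to 0.0705 for the others).

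Of 13 genes that set or keep imprints, 11 were tested in each species. Between core and rim 18.2% of them were called in the tumor, against 19.8% of all genes, and 36.4% in the host, against 37.6%. For lung against rim the shares were 27.3% against 20.1% and 18.2% against 22.1%, and between lung and core 54.5% against 36.3% and 36.4% against 32.8%. In tumor cells Uhrf1, which guides the maintenance methylase to newly copied DNA, fell in the core (-1.10 ± 0.12, adjusted p = 0.00142) and Dnmt1, that methylase, was lower by a small amount (-0.39 ± 0.11, adjusted p = 0.045); the Dnmt1 call was lost without any 1 rat (adjusted p 0.0568 to 0.156). In the host Uhrf1 rose in the core (0.93 ± 0.20, adjusted p = 0.00679), as did the de novo methylase Dnmt3a (0.73 ± 0.16, adjusted p = 0.00752), whose call was lost without Rat3876 and Rat3877 together (adjusted p = 0.0956), and Zfp445 fell (-0.63 ± 0.17, adjusted p = 0.021), a call lost without Rat3867 (adjusted p = 0.0558), Rat3875 (0.0646) or Rat3877 (0.0518). Zfp57 also fell in the host core (-2.08 ± 0.41, adjusted p = 0.00499) but lay under 2 mean log2 CPM; it is named here, chosen after its values were seen, because it completes the 4 calls. In the lung against the core, tumor Uhrf1 (1.23 ± 0.14) and Dnmt1 (0.86 ± 0.10) rose, while Zfp57 (-0.97 ± 0.27) and Trim28 (-0.30 ± 0.09), which hold imprints together, were lower, calls lost without Rat3875 (adjusted p = 0.0566 and 0.0784) and without Rat3877 (0.0553 and 0.0651). In the lung against the rim tumor Tet1, a demethylase, fell (-1.40 ± 0.27, adjusted p = 0.0047), Zfp57 was lower (-0.88 ± 0.28, adjusted p = 0.0445) and Dnmt1 higher (0.47 ± 0.12, adjusted p = 0.0186), the Zfp57 call being lost without any 1 rat but Rat3876 (adjusted p 0.076 to 0.151) and the Dnmt1 call without Rat3869 or Rat3876 (0.0728 and 0.0667). In host lungs Tet3 was higher than in the rim (0.42 ± 0.13, adjusted p = 0.0436), a call lost with the rat as a block (0.0536) and without Rat3789, Rat3875, Rat3876 or Rat3877 (0.0514 to 0.177), and Dnmt3a (-0.72 ± 0.17; not without Rat3876 and Rat3877 together, adjusted p = 0.0715) and Uhrf1 (-0.58 ± 0.18) were lower than in the core, the latter not under total-count scaling (0.0864) or without any 1 of Rat3867, Rat3875, Rat3876 and Rat3877 (0.073 to 0.134).

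Of 38 listed genes tested between core and rim in both species, 3 moved oppositely in tumor and host in all 5 rats. Of all 9741 genes tested in both, 660 did (6.78%), so the count is near the background and only lists these genes: Dcn and Igfbp7 rose in tumor reads and fell in host reads, and Uhrf1 fell in tumor reads and rose in host reads. The difference between the species was not tested. Tumor Igfbp7 measured 213 to 288 CPM in the cores and 12.95 to 158 CPM in the rims, and host Igfbp7 154 to 232 CPM in the cores and 335 to 597 CPM in the rims (-1.16 ± 0.17, adjusted p = 0.00112). Tumor Uhrf1 measured 48.4 to 86.2 CPM in the cores and 135 to 173 CPM in the rims, and host Uhrf1 53.4 to 99.6 CPM and 24.4 to 57.5 CPM.

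**Figure D5:**
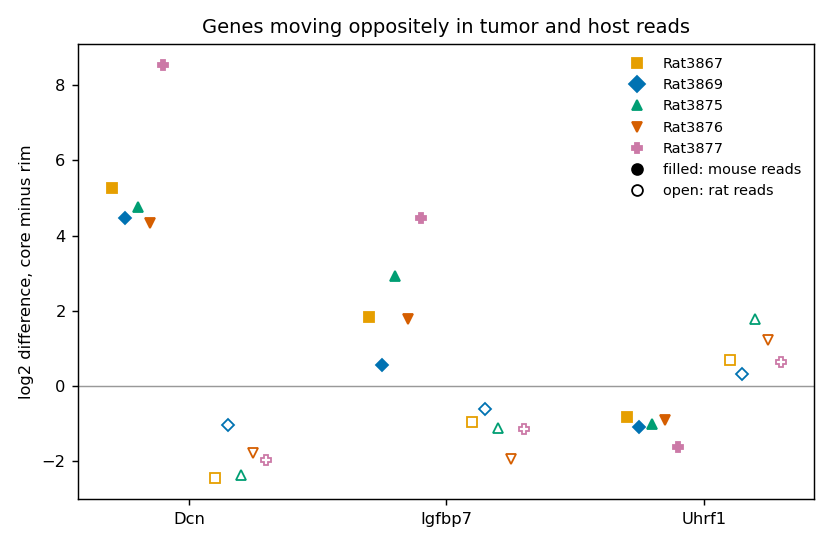
Log2 difference of core minus rim in each of 5 rats for Dcn, Igfbp7 and Uhrf1; filled symbols are mouse reads and open symbols rat reads. Points of the same gene lie on opposite sides of 0 for the 2 species in every rat.

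The genes whose levels were most like those of tumor H19 over the 15 libraries, among 10730 mouse genes of at least 2 mean log2 CPM, were Ccdc90b (Pearson r = 0.86), Ankrd42 (0.81), Casp6 (0.80), Hoxa2 (0.80) and Inhba (0.79). Ccdc90b and Ankrd42 are neighbors that overlap by 572 bases on opposite strands of chromosome 7, so they may share counted reads; 49938386 bases lie between them and H19. Ccdc90b ranged from 9.44 to 16.0 CPM, highest in the lung of Rat3789, while H19 ranged from 101 to 2059.7 CPM. For the tumor members r with H19 was 0.49 (Igf2r), 0.32 (Mest), 0.28 (Grb10) and 0.13 (Plagl1). For host Igf2 the most alike of 11289 rat genes were Bhlhb9 (0.89), Lnx1 (0.88), Tbc1d8b (0.88), Wdr75 (0.87) and Armcx4 (0.86). Host members stood at 0.80 (Peg3), 0.79 (Plagl1), 0.78 (Grb10), 0.73 (Mest), 0.54 (Cdkn1c) and -0.25 (Igf2r). Libraries share rats and groups, so these values describe the 15 libraries and carry no test.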

How the data were processed

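Poly(A) RNA-seq libraries of tumor core, rim and lung (5 each), rat gland (2) and a 4T1 pellet (1) were used. The submitters' processing notes name Trim Galore, STAR, featureCounts, limma, GRCm38 and Rnor_6.0; for versions, species assignment and strand, no label or header gives them. Raw counts per gene were deposited for the controls. For tumors and lungs a normalized signal per gene was deposited, here called CPM, whose values equal 0.5 more than a whole number of reads, multiplied by 1 factor per library; 100% of values came out whole within 0.01 reads. The main test was limma 3.58.1 (trend, two-sided) in R 4.3.3 on log2 of this deposited signal, with no further pseudocount, for genes that reached 1 CPM in 5 or more compared libraries, Benjamini-Hochberg adjusted over all genes tested (threshold 0.05). Folds of genes with few reads are understated. Core and rim were blocked by rat, from the animal in the labels. Correlation of deviations from the group means was -0.18 to 0.24 within a rat and -0.28 to 0.30 between rats in mouse genes, so mouse values do not bear out the pairing. In rat genes it was 0.03 to 0.34 within a rat and -0.32 to 0.18 between rats. Lung comparisons were not blocked, since Rat3789 gave no tumor library and Rat3867 no lung. With the rat as a block, mouse lung against rim had 2 members called in place of 1. Alternatives were edgeR 4.0.16, DESeq2 1.42.0 and limma-voom on the recovered reads, other scalings, filters and pseudocounts, subtraction of wrongly placed reads, and leaving out rats. No replicate pair agreed within sampling noise (lowest chi-square per degree of freedom 5.39). Unmapped per-sample columns numbered 0, and the gland libraries were not matched to their labels' numbers.

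Wrongly placed reads were estimated from the control of the other species, in proportion to the gene of the same symbol where that control held at least 20 reads of it and otherwise to all reads of that species. The members and gene lists were chosen with earlier results of these data known. List genes named are up to 4 called ones per list and comparison with the largest difference at a mean of 2 log2 CPM or more. Reads carry no molecular identifiers, so intervals and limits of 0 counts cover counting error only. On simulated core and rim data, changes of 2 on the log2 scale were recovered for 100% of mouse and 96% of rat genes. Changes of 1 were recovered for 27.6% and 34%. The simulation gave every gene the same spread between libraries, had no rat effect and changed only genes with a mean of 10 reads or more. It does not cover members with fewer reads or a wider spread, such as H19. Figures were drawn with matplotlib.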

Additional observations from a re-analysis of the deposited data

Results flagged for a closer look

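Among 36 sets of 5 libraries of 1 member in 1 group, 6 held a library far from the other 4, by Dixon's ratio of gap to range. Its threshold flags about 1 set in 20 by chance when values are normal and sets are independent. Here it was applied to CPM without logs and to sets that share libraries, so that rate need not hold. In mouse reads, H19 in the lung of Rat3789 stood at 2059.7 CPM, Igf2r in the core of Rat3869 at 373 CPM, Plagl1 in the core of Rat3875 at 10.1 CPM and Plagl1 in the rim of Rat3877 at 7.61 CPM. In rat reads, Peg3 and Plagl1 in the core of Rat3876 stood at 11.3 and 2.63 CPM.

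Of 38 listed genes, 3 moved 1 way in all 5 rats in tumor reads and the other way in all 5 in host reads between core and rim, beside 6.78% of all 9741 genes tested in both species. The mean log2 differences were 5.47 ± 1.75 (SD over 5 rats) and -1.92 ± 0.57 for Dcn, 2.31 ± 1.47 and -1.16 ± 0.48 for Igfbp7, and -1.10 ± 0.31 and 0.93 ± 0.57 for Uhrf1, tumor first. The difference between tumor and host was not tested. In the cores 485 to 954 host Igfbp7 reads were counted, beside 185 to 262 expected to be wrongly placed. That estimate comes from the pellet, with 50 reads on rat and 1159 on mouse Igfbp7. Whether those 50 reads came from tumor RNA was not tested.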

How the results depend on the processing

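Over the members and their counts, no called value turned its direction in the alternatives run. The number of tumor members called between core and rim was 1 to 2 when each rat was left out (2 with all rats). These were not always the same genes. The H19 call was kept only when Rat3875 was the rat left out, and without Rat3877 Plagl1 was called in its place. Between lung and rim it was 1 with all libraries, 1 to 2 with each rat left out, 2 with the replicate block and 0 without Rat3876 and Rat3877 together. Host members called between lung and core rose from 4 to 7 with DESeq2. Host core against rim had 6 called in every alternative run. Without a filter, or with a mean of 10 reads, mouse Grb10 entered the tests and was lower in the core than the rim (-3.66), at counts near those expected from rat Grb10. The ratio of H19 to Igf2 was not run, since mouse Igf2 and rat H19 are not analysed here. Depth limits host Igf2, Mest and Plagl1 in the core, at 0 to 8 reads, and tumor Plagl1 in the lung, at 9 to 23. Among members, the block or its absence changed only the call of H19 between lung and rim and those of host Igf2r and Cdkn1c between lung and core.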
